A study of Homo sapiens with 34 samples.

Results

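The 10 genes described here encode the receptors through which cells read TGF-beta, activin, nodal and BMP: the type I receptors ACVR1, ACVR1B, TGFBR1, BMPR1A and BMPR1B, the type II receptors ACVR2A, ACVR2B, BMPR2 and TGFBR2, and the co-receptor TGFBR3. They were taken by gene symbol from the 37951 gene identifiers counted in both count tables, each symbol matched 1 identifier, and all 10 passed the filter on low counts. The RNA came from wild-type ESI017, a long-used line of human embryonic stem cells, and was sequenced as 34 libraries, 2 for each of 17 conditions. The undifferentiated control was kept in mTeSR PLUS, and its label gives 48 h. In Essential 6 medium, 4 primitive streak (PS) populations were made over the first 24 h. DE(a) received 100 ng/ml activin A and 2 µM CHIR. APS (anterior PS) received 4 µM CHIR, activin A at 30 ng/ml and also 20 ng/ml bFGF. MPS (mid PS) received the activin and bFGF of APS with 40 ng/ml BMP4 and 6 µM CHIR, and PPS (posterior PS) received the MPS mixture without activin. Each population was then taken to 48 h in 1 of 3 media, which gives 12 further conditions named by both steps, such as MPS-LM. DE(b), for definitive endoderm, held 100 ng/ml activin A and 250 nM LDN. PM, for paraxial mesoderm, combined 1 µM A8301 and 250 nM LDN with bFGF at 20 ng/ml. The labels and the methods of the study list no CHIR in PM. Elsewhere the study describes PM as a medium with Wnt activation, and a figure legend names CHIR in it. Whether PM held this Wnt activator in these libraries was not settled. Every contrast with PM carries that doubt and may also be a contrast in Wnt activation. LM, for lateral mesoderm, combined 4 µM IWP2 and 1 µM A8301 with BMP4 at 30 ng/ml. The usual pairings of the steps are DE(a) with DE(b), APS with PM, and MPS with LM, called the DE, PM and LM protocols below.

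Ligands of this family bring a pair of type II receptors together with a pair of type I receptors. The type II kinase phosphorylates the type I kinase, which then phosphorylates SMAD proteins: SMAD2 and SMAD3 for TGF-beta, activin and nodal, and SMAD1, SMAD5 and SMAD9 for BMPs. ACVR1B serves activin and nodal, TGFBR1 and TGFBR2 serve TGF-beta, ACVR1, BMPR1A, BMPR1B and BMPR2 serve BMPs, and ACVR2A and ACVR2B take part in both branches. TGFBR3, also called betaglycan, has no kinase and presents TGF-beta and inhibin to the other receptors. In the embryo, nodal and BMP signalling pattern the PS along its anterior to posterior axis. LDN blocks BMP type I receptor kinases and A8301 blocks the type I kinases for TGF-beta, activin and nodal, so the media act on these proteins, whereas the values below are mRNA levels. CHIR activates Wnt signalling by inhibiting GSK3, and IWP2 blocks the secretion of Wnt ligands.

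Levels are given as CPM, a gene's estimated count per 1000000 counts of its library. Totals lay between 15522780 and 23439799 (median 19341118). A change is a log2 fold change (log2FC) from edgeR's quasi-likelihood test with its standard error (SE), and it was called where the p adjusted by Benjamini-Hochberg over all 17895 genes tested was under 0.05. A figure legend of the study calls the 2 replicates of each condition biological. The labels do not say that they came from separate cultures, so the tests measure the spread between these libraries. The fate markers followed the labels of the day 2 media in broad terms: summed CPM for TBX6, MSGN1 and CDX2 was 371 to 466 in PM and 4.71 to 81.4 in LM, and that for HAND1, ISL1 and FOXF1 was 451 to 2263 in LM and 1.33 to 39.2 in PM. The sum for SOX17, FOXA2 and CXCR4 was 124 to 722 in DE(b), but 234 to 335 in PM, where CXCR4 was higher than in DE(b) (log2FC from PM to DE(b) -2.31, SE 0.27, adjusted p = 2.88e-07), and PPS-DE(b) had the lowest DE(b) sums, 124 and 252. In these bulk libraries, fewer cells of a type and less RNA per cell cannot be told apart.

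The effect of the day 1 treatment differed most between the 3 media for TGFBR2, TGFBR3 and BMPR2, and the 250 bases before their main transcription starts are printed here to show what kind of sequence lies there. They were read from RefSeq promoter sequences of GRCh38.p14, where all 10 receptors had an entry, and are written along the strand of the gene. Capitals mark GTCTG or CAGAC (a SMAD box on either strand), GGCGCC (a GC-rich SMAD motif, its own reverse complement) and CTTTG or CAAAG (a TCF/LEF core on either strand).
BMPR2, chr2:202376077-202376326, plus strand: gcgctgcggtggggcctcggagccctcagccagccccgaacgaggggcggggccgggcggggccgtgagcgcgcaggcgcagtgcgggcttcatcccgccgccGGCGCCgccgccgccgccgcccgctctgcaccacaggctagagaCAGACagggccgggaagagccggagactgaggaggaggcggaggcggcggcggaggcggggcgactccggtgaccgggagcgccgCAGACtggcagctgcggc
TGFBR2, chr3:30606351-30606600, plus strand: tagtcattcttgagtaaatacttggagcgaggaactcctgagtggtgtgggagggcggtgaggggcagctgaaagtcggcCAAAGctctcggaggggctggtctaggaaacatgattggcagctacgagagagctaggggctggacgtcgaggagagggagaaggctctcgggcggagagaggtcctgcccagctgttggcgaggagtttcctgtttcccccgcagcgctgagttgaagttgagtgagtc
TGFBR3, chr1:91886152-91886401, minus strand: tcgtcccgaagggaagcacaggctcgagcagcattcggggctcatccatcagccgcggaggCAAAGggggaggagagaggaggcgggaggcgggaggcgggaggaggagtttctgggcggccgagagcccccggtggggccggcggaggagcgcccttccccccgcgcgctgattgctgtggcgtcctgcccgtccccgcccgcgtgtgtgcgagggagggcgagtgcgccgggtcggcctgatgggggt
The BMPR2 window was 79.2% G and C with 36 CpG, the TGFBR3 window 73.6% with 28 CpG, and the TGFBR2 window 58.4% with 12 CpG, against medians of 58% and 11 CpG over 35116 promoters. BMPR2 held 2 SMAD boxes, 103 and 18 bases before the start (first base of each), and 1 GGCGCC at 147 bases. TGFBR2 and TGFBR3 held 1 TCF/LEF core each, at 170 and 189 bases. Among all promoters of this length, 38.0% held a SMAD box, 16.4% GGCGCC and 42.1% a TCF/LEF core. These are matches of letters, and binding was not measured. The BMPR2 window also overlaps an exon of another annotated transcript (ENSG00000273456), and GENCODE lists no exon within the other 2 windows, although that of TGFBR3 lies inside the span of the gene, upstream of its main start.

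The genes lie on chromosome 2 (ACVR1, ACVR2A and BMPR2), 3 (ACVR2B and TGFBR2), 12 (ACVR1B), 9 (TGFBR1), 10 (BMPR1A), 4 (BMPR1B) and 1 (TGFBR3). In GENCODE 44 on GRCh38, BMPR2 spans chr2:202376327-202567751 with 13 exons in its main transcript, TGFBR2 chr3:30606601-30694142 with 7, BMPR1A chr10:86756596-86932825 with 13 and TGFBR3 chr1:91680343-91906335 with 17. Of the members, TGFBR3 had the widest span of levels over the 17 conditions, from a mean of 4.17 CPM in PPS at 24 h to 81.9 in MPS-LM, a ratio of 19.6. BMPR1B, the receptor with the lowest CPM per kb in the control, spanned 0.484 CPM in PPS-PM to 5.80 in DE(a)-DE(b). As it had only 4 to 123 counts per library, its values are the least precise. The other ratios of highest to lowest condition were 6.12 for BMPR2, 5.46 for TGFBR2, 3.81 for BMPR1A, 2.48 for ACVR1, 2.37 for ACVR2A, 2.17 for TGFBR1, 2.03 for ACVR1B and 1.89 for ACVR2B.

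**Figure D1:**
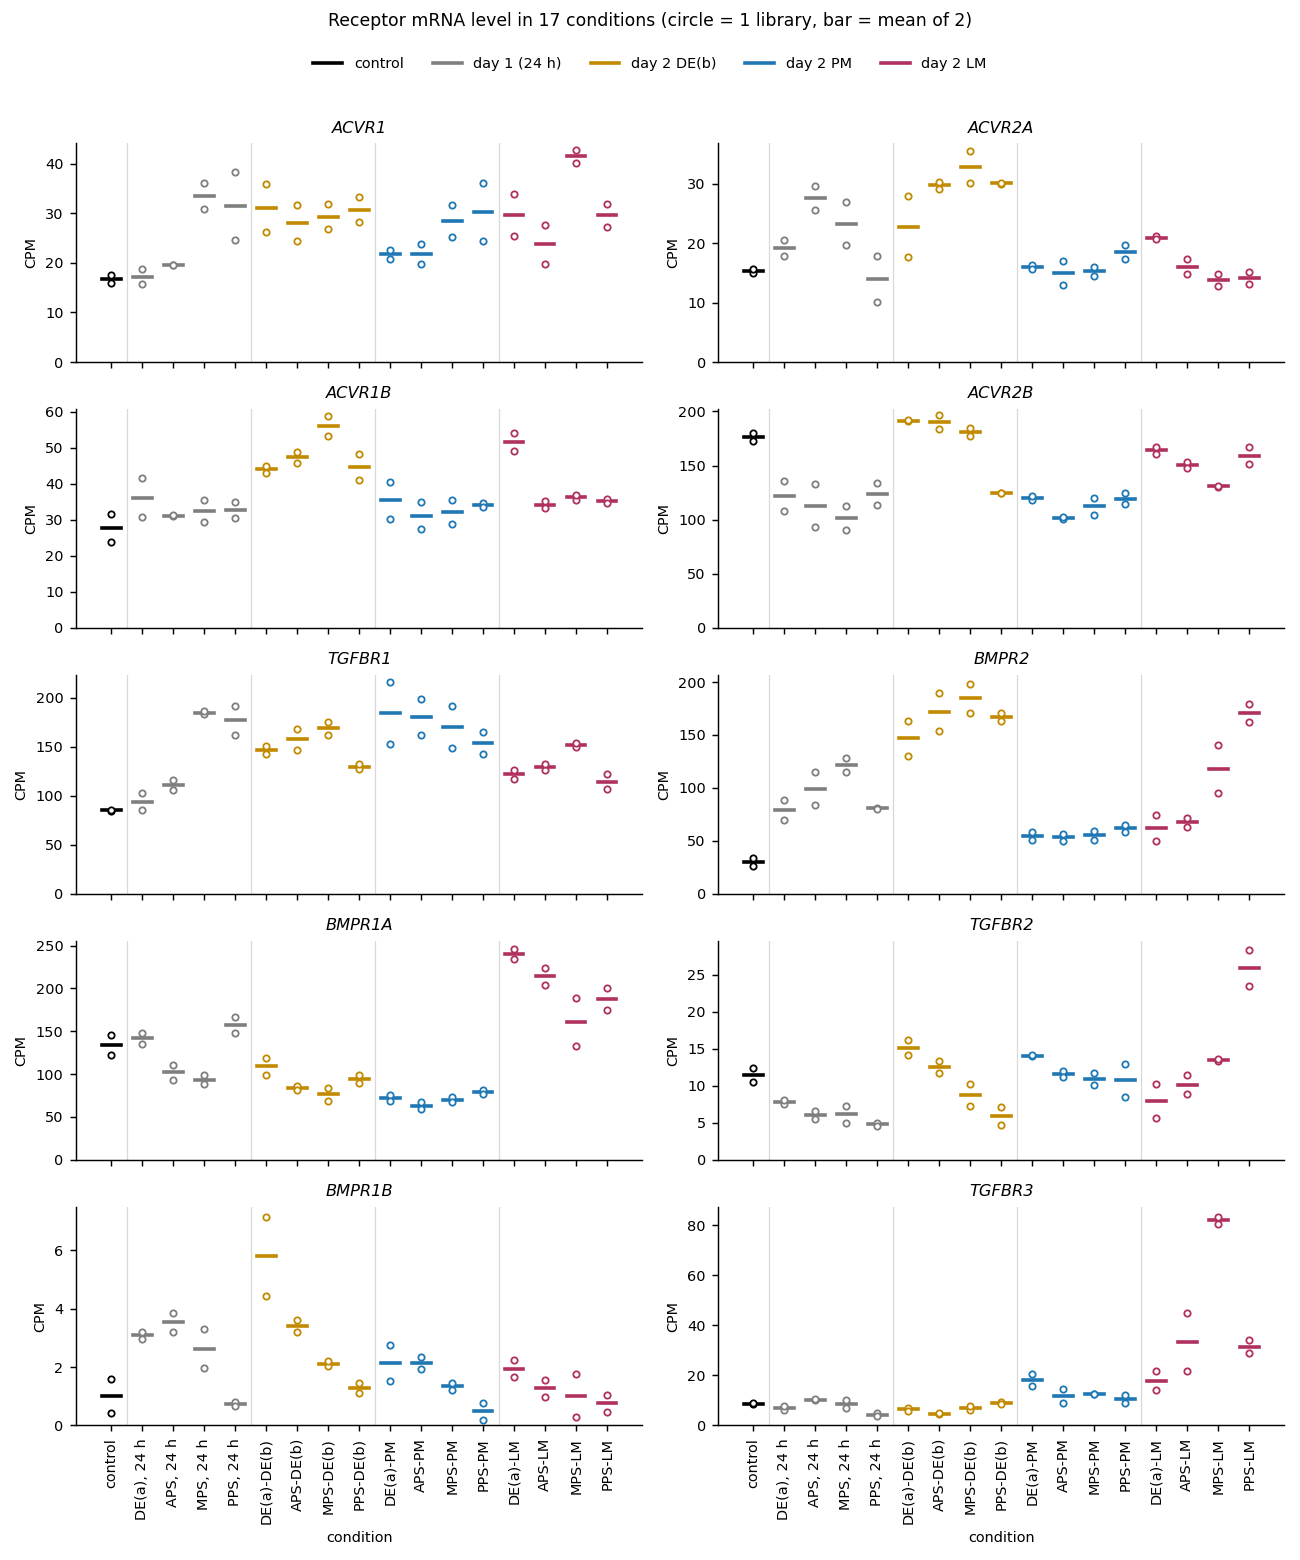
Level of each receptor in CPM (vertical axes, from 0) in the 17 conditions (horizontal axis). Circles are single libraries, bars are means of 2 libraries, and colours give the control, day 1 and the 3 day 2 media. BMPR2 is lowest in the control at 26.5 and 33.8 CPM and at least 130 in every DE(b) library, BMPR1A is at least 132 in every LM library, and TGFBR3 stands out in MPS-LM at 80.5 and 83.3.

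Ordered from highest to lowest, neighbouring conditions mostly did not differ beyond their spread (mean ± SD of 2 libraries overlapped). This held for all 16 neighbouring pairs for ACVR2A, 15 of 16 for ACVR1B, BMPR1A, BMPR1B, BMPR2 and TGFBR1, 14 for ACVR1 and TGFBR2, 13 for ACVR2B and 11 for TGFBR3. Fine ranks therefore carry little information, and the differences described below are those between groups of conditions. Replicate 2 was the higher one in 16 of 17 conditions for BMPR2, with a median log2 difference of 0.21, and in 14 for ACVR2B and TGFBR1. For ACVR2A it was the higher one in only 4 of 17.

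Levels of different genes were compared per kb of exon. In the control, BMPR1A (13.3 ± 1.69 CPM per kb, SD, n = 2), ACVR2B (11.2 ± 0.325) and TGFBR1 (10.6 ± 0.107) led, ACVR1B followed at 4.88 ± 0.969, and BMPR2, ACVR2A, ACVR1, TGFBR2 and TGFBR3 lay between 1.02 and 2.41. BMPR1B was at 0.153 ± 0.124. Among the type II receptors, ACVR2B made up 63.6% ± 1.8 (SD, n = 2) of the CPM per kb in the control and BMPR2 13.6% ± 1.6. The order was turned round in 7 of the other 16 conditions, by most in PPS-DE(b), with BMPR2 at 49.8% ± 0.3 and ACVR2B at 29.6% ± 0.8. Both libraries of MPS at 24 h (47.0% ± 1.9 against 31.1% ± 3.8), MPS-DE(b) (45.1% ± 2.4 against 35.3% ± 0.6), PPS-LM (45.8% ± 2.3 against 34.1% ± 2.9), APS-DE(b) (42.5% ± 2.4 against 37.5% ± 1.6) and APS at 24 h (38.9% ± 2.5 against 35.2% ± 3.2) had more BMPR2 as well. MPS-LM did so in 1 of 2 libraries (42.7% ± 7.0 against 38.3% ± 4.0), whereas in DE(a)-LM ACVR2B stayed ahead at 52.9% ± 4.2 against 24.9% ± 4.4. Among the type I receptors, TGFBR1 was at 61.1% ± 5.5 and BMPR1A at 17.1% ± 2.4 in APS-PM. In DE(a)-LM, BMPR1A was at 46.4% ± 1.0 and TGFBR1 at 29.6%. With the length of the longest transcript in place of the union of exons, BMPR2 was ahead of ACVR2B in the mean of only 3 conditions, at 44.3% against 33.9% in PPS-DE(b), 41.6% against 35.5% in MPS at 24 h and 40.6% against 38.8% in PPS-LM.

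**Figure D2:**
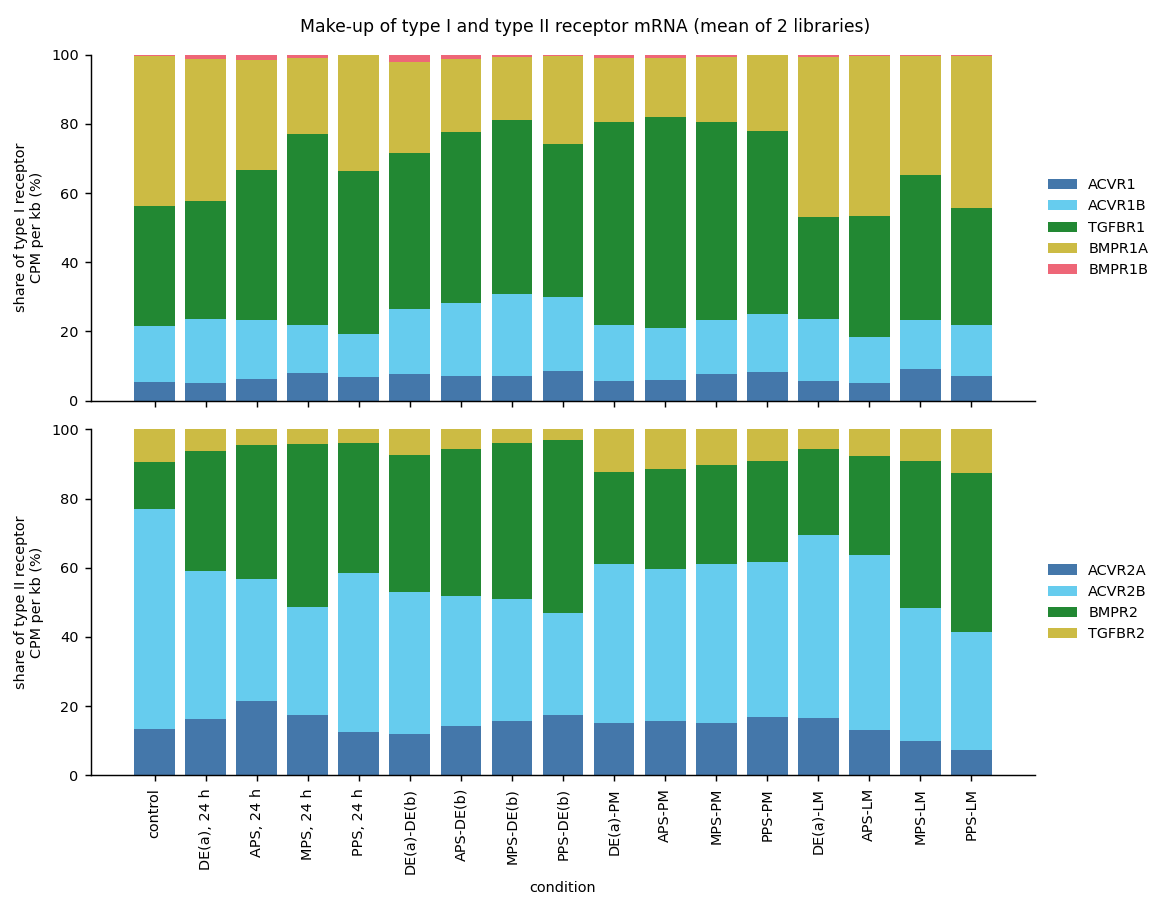
Share of each receptor in the summed CPM per kb (vertical axes, %) of the type I receptors (top) and type II receptors (bottom) in the 17 conditions, as means of 2 libraries. In the control ACVR2B takes 63.6% of the type II total and BMPR2 13.6%, whereas in PPS-DE(b) BMPR2 takes 49.8%.

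The first comparison asked which receptors changed as cells left the undifferentiated state. BMPR2, the type II receptor that prefers BMPs, rose at every stage. Its level was 26.5 and 33.8 CPM in the control, 69.6 to 128 (median 86.1) over the 8 PS libraries at 24 h, 130 to 198 (median 167) in DE(b), 49.8 to 65.1 (median 57.5) in PM and 49.7 to 179 (median 84.9) in LM. Every differentiated library was thus above both control libraries. The log2FC was 1.71 (SE 0.20, adjusted p = 6.94e-07) at 24 h, 2.51 (SE 0.21, 3.27e-09) in DE(b), 0.88 (SE 0.19, 0.000651) in PM and 1.71 (SE 0.20, 3.24e-07) in LM. TGFBR1, the type I receptor for TGF-beta, was also higher on average at every stage, from 84.4 and 85.6 CPM to medians of 139 at 24 h, 126 in LM, 149 in DE(b) and 164 in PM, with log2FC between 0.64 in LM and 1.00 in PM. In DE(a) at 24 h it was at 85.4 and 103 CPM, the first within the control values. ACVR1, a type I receptor for BMPs, was called higher at each stage too, with log2FC of 0.62, 0.87, 0.58 and 0.91 in the order 24 h, DE(b), PM and LM. Its control libraries were at 15.9 and 17.5 CPM. At 24 h it was at 18.7 and 15.8 in DE(a), 19.5 in both APS libraries and 24.5 to 38.3 in MPS and PPS. The 24 h value is thus a mean over unlike populations. The 4 contrasts share the 2 control libraries, and for ACVR1 the calls at 24 h and in PM were lost without control replicate 1 (adjusted p = 0.207 and 0.198) or without control replicate 2 (0.0859 and 0.0801), and that in PM also without PPS-PM replicate 2 (0.0515).

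Other receptors changed at some stages, in both directions. BMPR1A, the main type I receptor for BMP4, was at 122 and 146 CPM in the control. It fell in DE(b), where it was 68.3 to 119 (log2FC -0.54, SE 0.12, adjusted p = 0.00117), and in PM, where it was 59.1 to 81.7 (log2FC -0.94, SE 0.12, 1.52e-06). In LM it was higher (132 to 246, log2FC 0.61, SE 0.13, 0.00067). Without control replicate 2 the DE(b) call was lost (0.083), as was the LM call without control replicate 1 (0.0512). ACVR2B, an activin and nodal receptor, fell at 24 h from 173 and 180 CPM to between 90.3 and 135 (log2FC -0.55, SE 0.11, 0.000349) and in PM to between 100.4 and 125 (log2FC -0.66, SE 0.11, 2.74e-05). In DE(b) its log2FC was -0.02 with a 95% interval of -0.26 to 0.21. ACVR1B rose in DE(b) from 23.7 and 31.5 CPM to between 40.9 and 58.9 (log2FC 0.83, SE 0.14, 6.27e-05). TGFBR3 was called against the control only in LM (log2FC 2.06, SE 0.27, 1.84e-06). TGFBR2, the type II receptor for TGF-beta, was lower at 24 h (4.51 to 8.002 CPM against 10.5 and 12.45, log2FC -0.84, SE 0.21, 0.00416), a call lost without control replicate 2 (0.0942).

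The remaining calls against the control were of ACVR2A, ACVR1B and BMPR1B. ACVR2A was higher in DE(b) (log2FC 0.95, SE 0.19, adjusted p = 0.00027). At 24 h it had a log2FC of 0.50 (0.0413) that was lost without either control library (0.259 and 0.163), without replicate 1 of APS, MPS or PPS (0.0756, 0.0927 and 0.0891) or replicate 2 of DE(a) (0.0784), with no filter on low counts (0.0831) and when only the libraries compared were fitted (0.136). ACVR1B was higher in LM (log2FC 0.53, 0.00355), which was lost without control replicate 2 (0.164). BMPR1B was higher in DE(b) (log2FC 1.46, SE 0.56, 0.0393), but its control libraries held 35 and 8 counts and the call was lost in 7 of the 10 fits that left out a library, with adjusted p up to 0.404 without control replicate 2; the others were replicate 2 of each DE(b) condition and replicate 1 of APS-DE(b) and MPS-DE(b). Over the 10 receptors, 4 were called higher and 2 lower at 24 h, where 16.9% of all genes tested were called higher and 15.6% lower. In DE(b) 6 were higher and 1 lower (22.4% and 22.9% of all genes), in PM 3 were higher and 2 lower (22.3% and 22.7%), and in LM 6 were higher and none lower (24.3% and 24.6%). The median log2FC of the receptors was 0.42, 0.84, 0.30 and 0.57 in this order, against a median over all genes tested of between -0.01 and 0.02.

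The second comparison stepped through the PS populations at 24 h, from DE(a) to PPS. TGFBR1 was at 85.4 and 103 CPM in DE(a), 106 and 116 in APS, 183 and 186 in MPS and 192 and 162 in PPS. All 4 libraries of MPS and PPS were above all 4 of the others. MPS and PPS received BMP4 and also the most CHIR, 6 µM, so BMP4 and the CHIR dose cannot be told apart here. From APS to MPS its log2FC was 0.75 (SE 0.17, adjusted p = 0.0115). BMPR1A was at 135 and 148 CPM in DE(a), 111 and 93.3 in APS, 88.5 and 98.5 in MPS and 166 and 148 in PPS. It was thus low in the middle of the series, and from MPS to PPS it rose by a log2FC of 0.67 (SE 0.16, 0.0148). ACVR1 was at 15.8 to 19.5 CPM in the 4 DE(a) and APS libraries and at 24.5 to 38.3 in the 4 MPS and PPS libraries. The step from APS to MPS (log2FC 0.80, SE 0.25) was not called with edgeR (0.0979), but was with no filter on low counts (0.0154) and with DESeq2 (0.0448). From MPS to PPS, where activin is left out, ACVR2A went from 26.9 and 19.6 to 17.9 and 10.2 CPM (log2FC -0.80, SE 0.22, 0.0347) and TGFBR3 from 10.04 and 7.05 to 4.76 and 3.58 (log2FC -1.11, SE 0.32, 0.0401). BMPR2 was at 115 and 128 CPM in MPS and 81.1 and 80.0 in PPS (log2FC -0.67, SE 0.22, 0.0832). This difference was called with no filter on low counts (0.00978) and with a term for the replicate number (0.00277), but under no other alternative.

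These single steps compare 2 libraries with 2. No receptor was called from DE(a) to APS in edgeR's test (2 had an unadjusted p under 0.05 and DESeq2 called 0), where 0.609% of all genes were called higher and 0.123% lower. From APS to MPS 1 receptor was higher (1.89% of all genes, with 1.03% lower), and from MPS to PPS 1 was higher and 2 lower (2.79% and 3.35%). The call of TGFBR1 from APS to MPS was lost without any 1 of its 4 libraries (adjusted p = 0.0657 to 0.109). From MPS to PPS, ACVR2A was lost without MPS replicate 1 (0.506) or PPS replicate 2 (0.524), and both BMPR1A and TGFBR3 were lost without MPS replicate 1 (0.19 and 0.462), PPS replicate 1 (0.0813 and 0.058) or PPS replicate 2 (0.0522 and 0.367). Fitted on only the libraries compared, all 4 calls were lost, with adjusted p from 0.0707 to 0.306. Tested over all 4 populations at once, which 18.8% of all genes passed, TGFBR1 (adjusted p = 0.000248) and BMPR1A (0.0059) were called in the full fit and in each of the 8 fits without 1 library, although BMPR1A had an adjusted p of 0.057 among the 24 h libraries alone. ACVR2A (0.0111), ACVR1 (0.0135) and TGFBR3 (0.0192) were called as well. These were lost without PPS replicate 2 for ACVR2A (0.144), without MPS replicate 1 (0.055) or DE(a) replicate 2 (0.0563) for ACVR1, and without PPS replicate 1 (0.0551), PPS replicate 2 (0.205) or APS replicate 2 (0.0533) for TGFBR3. Among the 24 h libraries alone these 3 were not called either (0.177, 0.0673 and 0.0718). BMPR1B was at 2.96 and 3.22 CPM in DE(a) and 0.792 and 0.662 in PPS. Over the 4 populations it was not called in edgeR's main fit (0.0757). It was called with no filter on low counts (0.0264), among the 24 h libraries alone (0.0302) and with DESeq2 (0.0233).

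Cell type markers moved along the same steps. The 6 amnion markers summed to 11.8 and 9.66 CPM in DE(a), 12.6 and 10.8 in APS, 44.3 and 52.9 in MPS and 109.8 and 145 in PPS. From APS to MPS, 2 of the 6 were called higher, GATA3 (log2FC 4.15, SE 0.45) and TFAP2A (3.04, SE 0.49), and from MPS to PPS 2 were, TFAP2A (2.82, SE 0.42) and TFAP2C (2.39, SE 0.32). In that last step GABRP went the other way without a call in edgeR's test (-2.18, SE 0.66, adjusted p = 0.0534). GATA3 was not called there (0.55, SE 0.37). VTCN1 and TFAP2B, also amnion markers, were at most 0.518 CPM in all 8 libraries. The lateral mesoderm markers summed to 21.7 and 19.4 CPM in APS, 271 and 179 in MPS and 165 and 131 in PPS. The part of these cells in the receptor levels at 24 h was not tested.

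The third comparison set the day 2 media against each other, each over the 4 day 1 treatments, with 8 libraries a medium. Each medium had its own receptor profile. LM had the most BMPR1A and TGFBR3, DE(b) the most BMPR2, ACVR2A and ACVR1B, and PM the least BMPR2. BMPR1A was at 132 to 246 CPM (median 202) in LM, 68.3 to 119 (median 87.9) in DE(b) and 59.1 to 81.7 (median 70.6) in PM. No LM library overlapped with the other media. The log2FC was 1.55 (SE 0.08, adjusted p = 1.02e-12) from PM to LM, 1.15 (SE 0.08, 1.3e-10) from DE(b) to LM and 0.40 (SE 0.08, 0.000367) from PM to DE(b). BMPR2 was at 130 to 198 CPM in DE(b) and 49.8 to 65.1 in PM, again with no overlap (log2FC 1.63, SE 0.11, 9.26e-11). Its LM libraries spread from 49.7 to 179 CPM and overlapped with both.

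TGFBR3 was at 14.3 to 83.3 CPM (median 31.5) in LM, 8.96 to 20.7 (median 12.4) in PM and 4.53 to 9.52 (median 6.48) in DE(b). Its log2FC was 2.44 (SE 0.16, adjusted p = 2.55e-11) from DE(b) to LM, 1.51 (SE 0.15, 3.19e-08) from PM to LM and -0.93 (SE 0.16, 3.56e-05) from PM to DE(b). ACVR2A was at 17.6 to 35.5 CPM in DE(b), 12.9 to 19.6 in PM and 12.8 to 21.2 in LM. It was higher in DE(b) than in PM by a log2FC of 0.88 (SE 0.11, 9.89e-07) and lower in LM than in DE(b) by -0.83 (SE 0.11, 2.39e-06). From PM to LM its log2FC was 0.05 with an interval of -0.19 to 0.28. ACVR2B was at 124 to 197 CPM in DE(b), 130 to 167 in LM and 100.4 to 125 in PM, and it was lowest in PM (log2FC 0.64, SE 0.07, 1.44e-07 for DE(b) and 0.47, SE 0.07, 9.67e-06 for LM). ACVR1B was at 40.9 to 58.9 CPM in DE(b) and at 27.3 to 40.5 in PM, without overlap (log2FC 0.58, SE 0.09, 7.89e-06). Its LM libraries were at 33.4 to 54.1 CPM and overlapped with both.

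**Figure D3:**
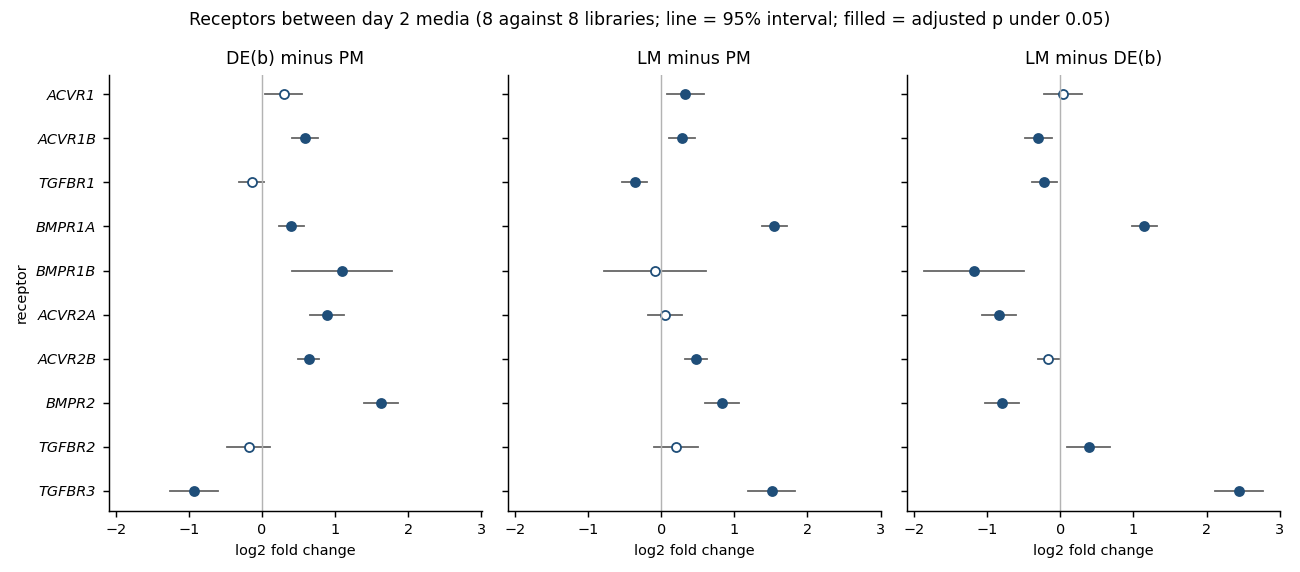
Log2 fold change of each receptor (horizontal axes) between day 2 media, 8 against 8 libraries in each panel. Points are estimates, lines are 95% intervals, and filled points passed the adjusted threshold. BMPR1A and TGFBR3 lie to the right in both panels with LM (1.55 and 1.51 against PM, 1.15 and 2.44 against DE(b)), and BMPR2 lies furthest right, at 1.63, in the panel of DE(b) against PM.

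The other differences between media were smaller. TGFBR1 was lower in LM than in PM (log2FC -0.36, SE 0.08, adjusted p = 0.00109), and BMPR1B was higher in DE(b) than in PM (1.09, SE 0.33, 0.00936) or LM (log2FC -1.18 from DE(b) to LM, SE 0.33, 0.00608). ACVR1B was higher in LM than in PM (0.28, SE 0.09, 0.0104) and lower in LM than in DE(b) (-0.30, SE 0.09, 0.0078). BMPR2 lay higher in LM than in PM (0.83, SE 0.11, 2.4e-06) and lower in LM than in DE(b) (-0.79, SE 0.11, 4.91e-06). In sum, from PM to DE(b) 6 receptors were higher and 1 lower, where 21.4% and 21.6% of all genes were, from PM to LM 6 were higher and 1 lower (21% and 21%), and from DE(b) to LM 3 were higher and 5 lower (19.8% and 19.8%). Of these 22 calls, 19 were kept whichever library was left out. The exceptions were ACVR1 from PM to LM (log2FC 0.33, adjusted p = 0.0342, and 0.0716 to 0.121 without replicate 1 of any PM condition or of PPS-LM, or replicate 2 of DE(a)-LM, APS-LM or MPS-LM), TGFBR1 from DE(b) to LM (-0.22, 0.0392, up to 0.0966 without APS-DE(b) replicate 2 and lost without 8 other libraries) and TGFBR2 from DE(b) to LM (0.39, 0.0348, up to 0.191 without DE(a)-LM replicate 2 and lost without 7 others). With no filter on low counts the calls of TGFBR1 and TGFBR2 from DE(b) to LM were also lost (0.0711 and 0.0637), and fitted on only the libraries compared that of TGFBR2 (0.0659).

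Markers of other cell types also differed between the media. All 6 amnion markers (GATA3, TFAP2A, TFAP2B, TFAP2C, VTCN1 and GABRP) were called higher in LM than in PM, and their summed level was 67.0 to 384 CPM in LM, 5.46 to 17.6 in PM and 16.5 to 30.3 in DE(b). Of 6 markers of endothelium and blood, 5 were tested and 2, KDR and TEK, were called higher in LM than in PM. The sum of the 6 was 336 to 1579 CPM in LM, 36.4 to 137 in PM and 64.4 to 120 in DE(b). In LM most of it was KDR. The undifferentiated control had sums of 191 and 237 CPM, with KDR at 158 and 198, so a high sum is not particular to endothelium or blood. TAL1 was at or below 0.127 CPM in every LM library, PECAM1 at or below 1.05 and CDH5 at or below 0.764. The part of such cells in the receptor differences was not tested.

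The fourth comparison followed each standard protocol from day 1 to day 2. In the LM protocol TGFBR3 rose from 10.04 and 7.05 CPM in MPS at 24 h to 80.5 and 83.3 in MPS-LM (log2FC 3.25, SE 0.32, adjusted p = 9.76e-08), and in every fit without 1 library it was called with a log2FC of at least 3.02. BMPR1A rose from 88.5 and 98.5 to 132 and 189 CPM (log2FC 0.78, SE 0.16, 0.00086) and TGFBR2 from 7.22 and 5.02 to 13.4 and 13.7 (log2FC 1.13, SE 0.29, 0.00435), while ACVR2A fell from 26.9 and 19.6 to 14.9 and 12.8 (log2FC -0.77, SE 0.22, 0.0115). In the PM protocol BMPR1A fell from 111 and 93.3 to 67.1 and 59.1 CPM (log2FC -0.80, SE 0.16, 0.000948) and BMPR2 from 83.7 and 115 to 49.8 and 56.8 (a fall by 1.00 on the log2 scale, SE 0.23, 0.00218). ACVR2A also fell, from 29.5 and 25.6 to 17.1 and 12.9 CPM (log2FC -0.98, SE 0.22, 0.00232). TGFBR1 (log2FC 0.60, 0.01) and TGFBR2 (0.83, 0.0377) were higher on day 2. In the DE protocol BMPR2 went the other way and rose, from 69.6 and 88.5 to 130 and 163 CPM (log2FC 0.82, SE 0.23, 0.00889). ACVR2B rose from 108 and 135 to 191 and 192 (0.58, SE 0.14, 0.00376). TGFBR1 (0.57, 0.0129), ACVR1 (0.78, 0.0226) and TGFBR2 (0.89, 0.0241) were higher as well, and BMPR1A was lower (-0.45, 0.0425).

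Among these 15 calls, BMPR1A in the PM protocol and TGFBR3 in the LM protocol were the 2 kept in every fit without 1 library. In the DE protocol all 6 depended on a library. Without DE(a) replicate 1 at 24 h, adjusted p was 0.138 for TGFBR1, 0.0809 for BMPR1A, 0.0801 for ACVR2B, 0.0529 for ACVR1, 0.122 for TGFBR2 and 0.11 for BMPR2. Leaving out DE(a) replicate 2 at 24 h ended the calls of BMPR1A (0.208), ACVR1 (0.146) and TGFBR2 (0.0802), DE(a)-DE(b) replicate 1 those of TGFBR1 (0.0524) and ACVR1 (0.186), and DE(a)-DE(b) replicate 2 those of BMPR1A (0.292), TGFBR2 (0.143) and BMPR2 (0.11). In the PM protocol, TGFBR2 was lost without any of the 4 libraries (0.0758 to 0.188), TGFBR1 without APS replicate 1 at 24 h (0.0664) or APS-PM replicate 2 (0.129), ACVR2A without APS-PM replicate 2 (0.0617) and BMPR2 without APS replicate 2 at 24 h (0.0536). In the LM protocol, BMPR1A was lost without MPS-LM replicate 2 (0.0547), TGFBR2 without MPS replicate 2 at 24 h (0.0758) and ACVR2A without MPS replicate 1 at 24 h (0.207) or either MPS-LM library (0.0536 and 0.0978). Fitted on only the libraries compared, all DE protocol calls other than BMPR2 were lost (0.0542 to 0.174), as were TGFBR1 (0.0745) and TGFBR2 (0.0796) in the PM protocol. With no filter on low counts, BMPR1A in the DE protocol (0.08) and TGFBR2 in the PM protocol (0.0524) were lost. In the DE protocol 5 receptors were called higher and 1 lower (14.5% and 13.5% of all genes), in the PM protocol 2 higher and 3 lower (11.9% and 13.2%), and in the LM protocol 3 higher and 1 lower (14.4% and 16.9%).

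The fifth comparison asked whether receptor levels differed by day 1 treatment after a shared day 2 medium, and whether the difference depended on that medium. BMPR2 differed by day 1 treatment in LM. At 24 h it had been at 69.6 and 88.5 CPM in DE(a), 83.7 and 115 in APS, 115 and 128 in MPS and 81.1 and 80.0 in PPS. Over the 4 populations this was not called in edgeR's main fit (adjusted p = 0.0937). It was called with no filter on low counts (0.00797) and with a term for the replicate number (0.00141). From DE(a) through APS and MPS to PPS, the LM libraries were at 49.7 and 74.6, 63.1 and 71.8, 95.2 and 140, and 163 and 179 CPM. Both PPS-LM libraries were above all other LM libraries, and PPS-LM was higher than DE(a)-LM by a log2FC of 1.55 (SE 0.23, adjusted p = 4.65e-05). In PM the same cells were at 49.8 to 65.1 CPM whatever the day 1 treatment, and the log2FC from DE(a) to PPS was 0.19 (95% interval -0.28 to 0.66). In DE(b) it was 0.22 (-0.24 to 0.69), at 130 to 198 CPM. The effect of the day 1 treatment on BMPR2 differed between the media in the test of the interaction (0.0125), which 13.1% of all genes passed. Without PPS-LM replicate 2 this p was 0.0539.

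TGFBR2 ran in opposite directions in DE(b) and LM. In LM it was at 5.56 and 10.2 CPM after DE(a), 8.84 and 11.4 after APS, 13.4 and 13.7 after MPS and 23.5 and 28.4 after PPS. In DE(b) it was at 14.1 and 16.2 CPM after DE(a), 11.8 and 13.4 after APS, 7.24 and 10.2 after MPS and 4.69 and 7.15 after PPS. The log2FC from DE(a) to PPS was 1.80 (SE 0.29, adjusted p = 0.000127) in LM and -1.31 (SE 0.29, 0.00272) in DE(b), and -0.37 (-0.96 to 0.22) in PM, where the libraries were at 8.53 to 14.2 CPM. The interaction was called (0.000333), and it was called in every fit without 1 library, while the DE(b) difference was lost without PPS-DE(b) replicate 1 (0.0826). Per kb, TGFBR2 was the lowest type II receptor in every condition other than PPS-LM, where it made up 12.7% of their sum, against 3.22% in PPS-DE(b).

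**Figure D4:**
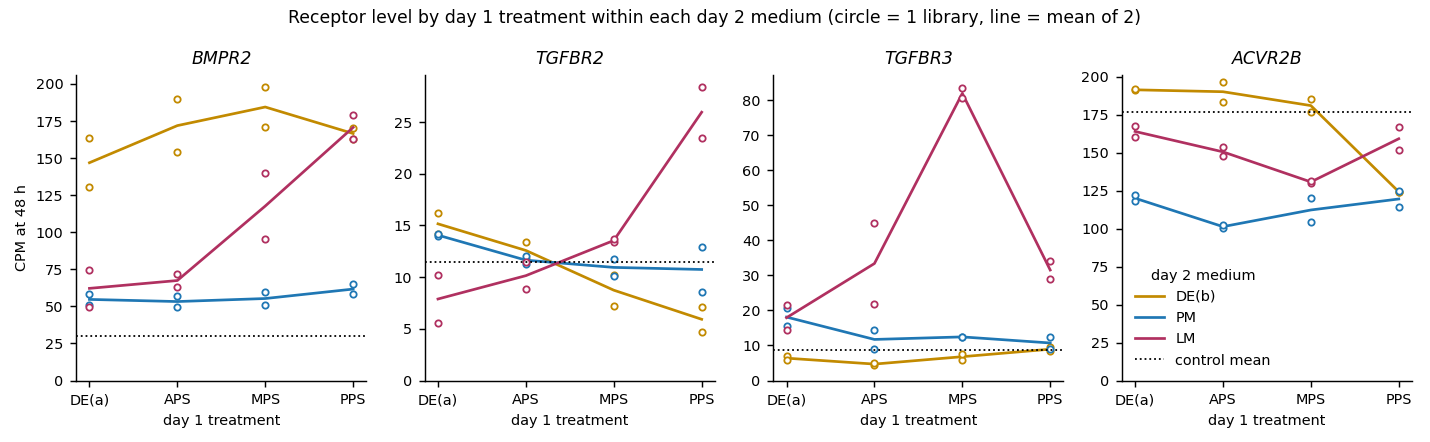
Level at 48 h in CPM (vertical axes, from 0) of the 4 receptors with a called interaction, by day 1 treatment (horizontal axes) and day 2 medium (colours). Circles are single libraries, lines join means of 2 libraries, and the dotted line is the control mean. BMPR2 and TGFBR2 are highest within LM after PPS (163 and 179, and 23.5 and 28.4 CPM), and TGFBR3 after MPS (80.5 and 83.3).

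TGFBR3 had its highest level within LM after MPS, the standard combination. Its LM libraries were at 14.3 and 21.6 CPM after DE(a), 21.8 and 44.9 after APS, 80.5 and 83.3 after MPS and 29.0 and 33.99 after PPS. Both MPS-LM libraries were therefore above the other 6. Over the 4 day 1 treatments the difference in LM was called (adjusted p = 3.87e-05), as was the interaction with the medium (0.000881), and both were called in every fit without 1 library. Between PPS and DE(a) alone the LM log2FC was 0.90 (SE 0.30, 0.0469), which was lost without DE(a)-LM replicate 1 (0.396), PPS-LM replicate 1 (0.0894) or PPS-LM replicate 2 (0.26) and when only the libraries compared were fitted (0.0572). ACVR2B stood out in DE(b) after PPS, at 124 and 124 CPM against 177 to 197 in the other 6 DE(b) libraries. From DE(a) to PPS it fell by 0.58 on the log2 scale (SE 0.14, 0.00602), which was lost without PPS-DE(b) replicate 1 (0.0558). Its interaction p of 0.0407 rose to 0.0501 to 0.208 in 18 of the 24 fits without 1 library, the highest without PPS-DE(b) replicate 1, and to 0.121 with no filter on low counts.

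BMPR1B was lower after PPS than after DE(a) in DE(b), with 23 and 24 against 90.5 and 123 counts (log2FC -2.14, SE 0.66, adjusted p = 0.0275). The call was lost without DE(a)-DE(b) replicate 2 (0.192) or either PPS-DE(b) library (0.205 and 0.107). In the other media BMPR1B was also lower after PPS than after DE(a), without a call in edgeR's main fit. It was at 0.778 and 0.190 against 2.77 and 1.51 CPM in PM, and 0.473 and 1.04 against 2.23 and 1.67 in LM. Its interaction was not called (adjusted p = 0.938), so the difference is not particular to DE(b). The other receptors showed no called difference between PPS and DE(a) in any medium, with log2FC between -0.46 and 0.50. In DE(b) 3 receptors were lower and none higher (8.73% and 8.63% of all genes were), in LM 3 were higher and none lower (6.52% and 7.81%), and in PM none was called in edgeR's test in either direction (3.67% of all genes higher, 4.95% lower), with 2 at an unadjusted p under 0.05 and 1 called by DESeq2. Over all 4 day 1 treatments, 3 receptors were called in LM (BMPR2, TGFBR2 and TGFBR3, with 19.6% of all genes), 2 in DE(b) (ACVR2B and TGFBR2, with 16.6%) and none in PM (7.47%), where 1 had an unadjusted p under 0.05 in edgeR's test and DESeq2 called 0. The 2 calls in DE(b) were lost without PPS-DE(b) replicate 1 (0.155 for ACVR2B and 0.118 for TGFBR2), and that of ACVR2B also without PPS-DE(b) replicate 2 (0.133).

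Cell type markers also moved within DE(b) and LM. In DE(b), the amnion markers summed to 20.8 and 16.5 CPM after DE(a) and 29.2 and 30.3 after PPS, and 2 of the 6 were called higher after PPS, GATA3 (log2FC 2.54, SE 0.45, adjusted p = 0.000333) and TFAP2A (5.55, SE 0.76, 1.9e-05). VTCN1 and TFAP2B were at most 0.243 CPM in every DE(b) library. The endoderm markers went the other way, from 585 and 719 CPM after DE(a) to 124 and 252 after PPS, with CXCR4 and FOXA2 called lower, as were the pluripotency genes NANOG (log2FC -3.29, SE 0.50) and SOX2 (-3.87, SE 0.74). All 3 markers of lateral and all 3 of paraxial mesoderm were called higher. The part of these cells in the DE(b) levels of ACVR2B, TGFBR2 and BMPR1B was not tested. In LM, the summed amnion markers were at 268 and 384 CPM in PPS-LM, 202 and 249 in DE(a)-LM, 67.0 and 81.3 in APS-LM and 70.4 and 101 in MPS-LM. From DE(a) to PPS, 3 of the 6 were called higher: GABRP (log2FC 3.63, SE 0.64, adjusted p = 0.000311), VTCN1 (4.92, SE 1.12, 0.00517) and TFAP2B (5.24, SE 1.47, 0.0282). GABRP was at 31.8 and 51.9 CPM in PPS-LM and at most 5.40 in the other LM libraries. The endoderm markers summed to 135 and 102 CPM in DE(a)-LM and to at most 10.3 in the other LM libraries. Of the endothelium and blood markers, TEK was at 19.8 and 25.0 CPM in DE(a)-LM and 34.9 and 72.9 in APS-LM. It was at 108 and 131 in MPS-LM and 47.5 and 31.5 in PPS-LM. By contrast, KDR was highest in APS-LM (974 and 1506 CPM) and CD34 in DE(a)-LM (3.18 and 4.25). The part of such cells in the LM levels of BMPR2, TGFBR2 and TGFBR3 was not tested.

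Other genes of the pathway were described from lists of co-receptors, SMADs, receptor regulators, ligands and response genes. From PM to LM, 21% of all genes tested were called higher and 21% lower, and from PM to DE(b) 21.4% and 21.6%. Shares of a list near these are no result about the list. Among the SMADs, 6 of 8 were called higher in LM than in PM and 1 lower. SMAD6, an inhibitory SMAD of the BMP branch, was at 230 to 706 CPM in LM, 12.3 to 26.3 in PM and 52.9 to 89.3 in DE(b) (log2FC from PM to LM 4.66, SE 0.12, adjusted p = 5.15e-17). SMAD9 was at 56.2 to 180 CPM in LM and at most 8.82 in PM and 4.22 in DE(b). SMAD5, a BMP branch SMAD, was the one called lower (log2FC -0.53, SE 0.07, 1.19e-06). SMAD7, which inhibits both branches, was at 2.69 to 8.61 CPM in PM, 29.1 to 78.2 in DE(b) and 74.5 to 102 in LM. Among response genes, ID2, a BMP target, was at 220 to 472 CPM in LM and 11.52 to 25.8 in PM (log2FC 4.16, SE 0.15, 8.98e-16). LEFTY2, a nodal target, was at 371 to 1400.2 CPM in DE(b) and at most 0.641 in PM and 0.766 in LM.

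Of 11 other receptors and co-receptors, 10 were tested, and 6 were higher and 3 lower in LM than in PM (21% and 21% of all genes). BAMBI, a decoy receptor without a kinase, was at 454 to 863 CPM in LM and at 28.7 to 68.2 in PM. CFC1, a nodal co-receptor, was at 7.55 to 199 CPM in LM and at most 3.02 in PM. ACVR1C, a type I receptor for nodal, had the most negative value (log2FC -2.53, SE 0.22, adjusted p = 2.05e-09). From PM to DE(b), 3 were higher and 3 lower (21.4% and 21.6% of all genes), and TDGF1, the other nodal co-receptor, was at 411 to 814 CPM in DE(b) and 3.37 to 35.5 in PM. Among 14 receptor regulators, 7 were higher and 4 lower in DE(b) than in PM, against the same 21.4% and 21.6%. PMEPA1, which limits SMAD signalling, was at 64.1 to 146 CPM in DE(b), 0.572 to 7.77 in PM and 1.81 to 5.79 in LM (log2FC from PM to DE(b) 5.73, SE 0.13, 1.98e-18). Of the 11 ligands, 4 were higher and 3 lower in DE(b) than in PM, again against 21.4% and 21.6% of all genes. NODAL was at 114 to 269.9 CPM in DE(b), at most 6.97 in PM and at most 0.759 in LM. BMP2 was at 255 to 476 CPM in DE(b), 17.2 to 43.2 in PM and 31.3 to 123 in LM. INHBA, a subunit of activin A, was lower in DE(b) than in PM (log2FC -4.13, SE 0.78, 0.00017). WWP1, a ubiquitin ligase, was the most lowered regulator from PM to DE(b) (-0.51, SE 0.09, 3.37e-05). The median log2FC of these lists from PM to LM was 0.54 for SMADs, 0.91 for other receptors, 0.05 for regulators, 1.30 for ligands and 1.48 for response genes, against 0.00 over all genes.

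Genes whose mean log2(CPM + 1) over the 17 conditions ran most like that of each receptor were found by Pearson's r among the 14647 genes tested whose mean reached 1 CPM. TGFBR3 ran most like FBXL4 (r = 0.952) and PRKCE (0.939), both with their highest level in MPS-LM. BMPR1A ran most like BCL9L (0.931) and PTGIS (0.921), ACVR2B like SEMA5B (0.930) and DYRK1B (0.926), ACVR2A like DNAL1 (0.939) and GNG10 (0.921), and BMPR1B like CD177 (0.922) and ARSE (0.907). BMPR2 ran most like MAP4 (0.907) and GATA6 (0.885), a transcription factor of endoderm and mesoderm with its highest mean, 698.7 CPM, in MPS-DE(b), the condition where BMPR2 was highest too. The best matches were weaker for ACVR1B (MFSD14A, 0.890, and RTN4RL1, 0.890), TGFBR1 (HLA-E, 0.886, a gene listed under several identifiers between which its reads may be split, and NFKB2, 0.855), ACVR1 (TMBIM1, 0.885, and STX7, 0.835) and TGFBR2 (RPUSD3, 0.812, and KIDINS220, 0.764). The 17 conditions share media and libraries and are not independent, and with so many genes compared high values are found for any gene, so these values only describe which profiles are alike.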

How the data were processed

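Reads were 2 x 75 bp from stranded poly(A) libraries. The authors quantified them with Salmon 1.10.2 on GRCh38 and summed transcripts to genes in R 4.4.2, per the labels and the methods of the study. The deposited values are estimated counts without normalization, and every column was assigned to a sample. Here they were divided by library totals to give CPM, which makes 3 counts 0.128 to 0.193 CPM, and rounded for tests in R 4.3.3 with edgeR 4.0.16: TMM, filterByExpr by condition, which kept 17895 of 37951 identifiers, and a model with a mean for each of the 17 conditions, with 17 residual degrees of freedom (common dispersion 0.0611), and Benjamini-Hochberg adjustment at 0.05. Comparisons over several conditions weight each condition equally. Tested on simulated data, 83% of 100 genes changed by 1 log2 unit were recovered from PM to LM, and 48% from MPS to PPS. Positions and exon lengths came from GENCODE 44. The genes named are the 10 receptors, the 2 genes most like each, and of each list those called with the largest and smallest log2FC (cell type markers apart); BAMBI and BMP2 between media were chosen after their values were seen. POU5F1, a pluripotency marker, is listed under several identifiers, so no count of called markers is given for that list. The receptors and lists were chosen with earlier results of these data known. Alternatives were RLE factors, no filter, the replicate number as a block, only the libraries compared, DESeq2 1.42.0 and leaving out each library, where the dispersion trend of the full fit was kept.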

Additional observations from a re-analysis of the deposited data

Results flagged for a closer look

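Of the 10 receptors, 4 were singled out because the effect of the day 1 treatment differed between the 3 day 2 media. This was edgeR's test of the interaction, which 13.1% of all genes tested passed. TGFBR2 had an adjusted p of 0.000333, with a log2FC from DE(a) to PPS of 1.80 in LM and -1.31 in DE(b). TGFBR3 had 0.000881, with its highest level in MPS-LM, at 80.5 and 83.3 CPM. BMPR2 had 0.0125, with a log2FC from DE(a) to PPS of 1.55 in LM, 0.19 in PM and 0.22 in DE(b), and ACVR2B had 0.0407, with -0.58 in DE(b), 0.05 in LM and 0.01 in PM. The last 2 did not hold in every fit without 1 library, as given with their values above. With 2 libraries a condition, no library could be tested as an outlier within its condition.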

How the results depend on the processing

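Of 210 receptor results, 85 were called. RLE in place of TMM changed no call, DESeq2 lost 0 and gained 9, and no filter on low counts lost 6 and gained 8. A fit of only the libraries compared lost 18 and gained 3, and with it receptor calls between PS populations fell from 4 to 0 (edgeR's test; 9 results there had an unadjusted p under 0.05 in the full fit and DESeq2 called 6) and those from day 1 to day 2 from 15 to 8. That fit estimates the spread from fewer samples. Leaving out 1 library at a time lost 39 calls in at least 1 fit. The count between PS populations then ranged from 0 to 4, that from day 1 to day 2 from 9 to 15, that between PPS and DE(a) from 3 to 7 and that of the interaction from 2 to 4, against 4, 15, 6 and 4. No called fold change was reversed under these alternatives.

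Same-numbered libraries deviated together in part of the conditions. Correlations between 136 pairs of conditions ran from -0.0743 to 0.34 (median 0.0755), and 43 were over the limit of 0.1. The labels name no batch, and the main model had no term for the replicate number. An effect shared by same-numbered libraries would thus remain in its residual spread. With the replicate block the counts were 24 against the control, 5 between PS populations, 23 between media, 16 from day 1 to day 2, 6 between PPS and DE(a), 11 over the day 1 treatments and 4 for the interaction, with 0 calls lost and 4 gained. Gained were BMPR2 from MPS to PPS (adjusted p = 0.00277) and over the day 1 treatments at 24 h (0.00141), and ACVR2B from DE(b) to LM (0.0287) and in the LM protocol (0.022).

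Counts over all genes moved by over 1.5 times where 2 libraries met 2 or over several day 1 treatments. From DE(a) to APS they were 131 in the main analysis, 570 with no filter, 73 with only the libraries compared and 263 with DESeq2. From APS to MPS they were 524, 1144, 267 and 809, and from MPS to PPS 1098, 1876, 296 and 1669, with 1717 under the replicate block. With only the libraries compared, counts fell from 5011 to 3161 in the DE protocol, from 4492 to 2682 in the PM protocol, from 1541 to 167 between PPS and DE(a) in PM and from 3359 to 1904 over the day 1 treatments at 24 h. Over the day 1 treatments in PM they were 1337, and 2528 with no filter, 272 with only the libraries compared and 2044 with DESeq2. For the interaction they were 2351, 4091 with no filter and 3650 with DESeq2. The cause was not tested.

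CPM from TMM library sizes moved 6 of the 20 highest and lowest receptor levels by more than the SD of 2 libraries, and the longest transcript as length exchanged the ranks of ACVR1 (7 to 5) and BMPR2 (5 to 7) in the control.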
